A study of Homo sapiens with 18 samples.

Results

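The 9 genes studied belong to the lysosome-to-nucleus signaling route and were followed in RKO cells, an established human colorectal carcinoma line, upon depletion of the endosomal sorting complex ESCRT-I. They were chosen by name, with no measured value in the rule but with earlier results of these data known. They are the transcription factors TFEB, TFE3 and MITF, the folliculin gene FLCN and its partner genes FNIP1 and FNIP2. The Rag GTPase genes RRAGC and RRAGD and the lysosomal calcium channel gene MCOLN1 complete the set. All 9 were found among the 20802 targets of the panel, each on 1 target, and 8 had enough reads to be tested. The cells were transfected with 30 nM of siCtrl#1 or siCtrl#2 (nontargeting siRNAs), siTsg101#1 or siTsg101#2 (against the ESCRT-I subunit Tsg101), or siVps28#1 or siVps28#2 (against the subunit Vps28), and RNA was collected after 72 h in 3 replicates of each of the 6 groups. The 18 libraries thus come from 1 cell line at 1 time point, and each on-target siRNA is directed, transiently, at the mRNA of 1 subunit. At the protein level, the paper reports that depleting either subunit also strongly lowered the other. The depletions are thus not separate losses of single subunits. Every group, controls included, received transfection reagent and an siRNA. The replicate number is given as the batch in the labels, and every batch holds 1 library of each group.

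MiT-TFE factors are basic helix-loop-helix proteins that bind short E-box sequences, many of which carry the letters CACGTG, near genes of lysosomes and autophagy. When nutrients reach the lysosome, the Rag GTPases recruit TFEB and TFE3 to its surface, where the kinase mTORC1 phosphorylates them and 14-3-3 proteins hold them in the cytosol. Folliculin, together with either FNIP1 or FNIP2, acts on the RagC or RagD partner of the Rag heterodimer, and calcium released through the MCOLN1 channel activates the phosphatase calcineurin, which removes the phosphates. Since this control acts on the proteins, the mRNA levels of the factors themselves do not report whether they are active. The paper treats MCOLN1 as a target gene of the factors. In its qPCR, depleting TFEB and TFE3 together prevented the rise of MCOLN1.

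The libraries were made with an AmpliSeq panel, which amplifies 1 short stretch of each target, so that levels are compared here between libraries for 1 gene and not between genes. Values are given as normalized CPM, the counts scaled to the library size on tested genes after TMM normalization. The libraries held 2561790 to 7466916 reads on genes (median 5022216). A gene was called when it changed at least 1.5-fold with a Benjamini-Hochberg adjusted p under 0.05 over the 10246 genes tested, in edgeR's quasi-likelihood test. TSG101 was at 4.97 normalized CPM or less in the 6 siTsg101 libraries and at 74.4 or more in the others, and VPS28 was at 7.85 or less in the 6 siVps28 libraries and at 65.0 or more in the others. Of 8 epithelial marker genes, EPCAM, KRT8, KRT18 and CDX2 were detected in all 18 libraries, whereas CDH1 had no read and KRT19, KRT20 and VIL1 had 6 reads or fewer in all.

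FNIP2 was the member called higher with every on-target siRNA, by 0.79 to 1.26 on the log2 scale, while its paralog FNIP1 did not pass the test with any of them. MCOLN1 was called higher with siTsg101#2 and siVps28#2, and TFEB and RRAGC with siTsg101#2. FLCN, TFE3 and MITF were called with none of the 4 siRNAs against siCtrl#1. The estimates of MCOLN1, TFEB, RRAGC and FLCN were nevertheless positive with all 4 siRNAs. No member was called lower. RRAGD had no read in any library. The plot of the levels of all 9 genes shows every library.

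**Figure D1:**
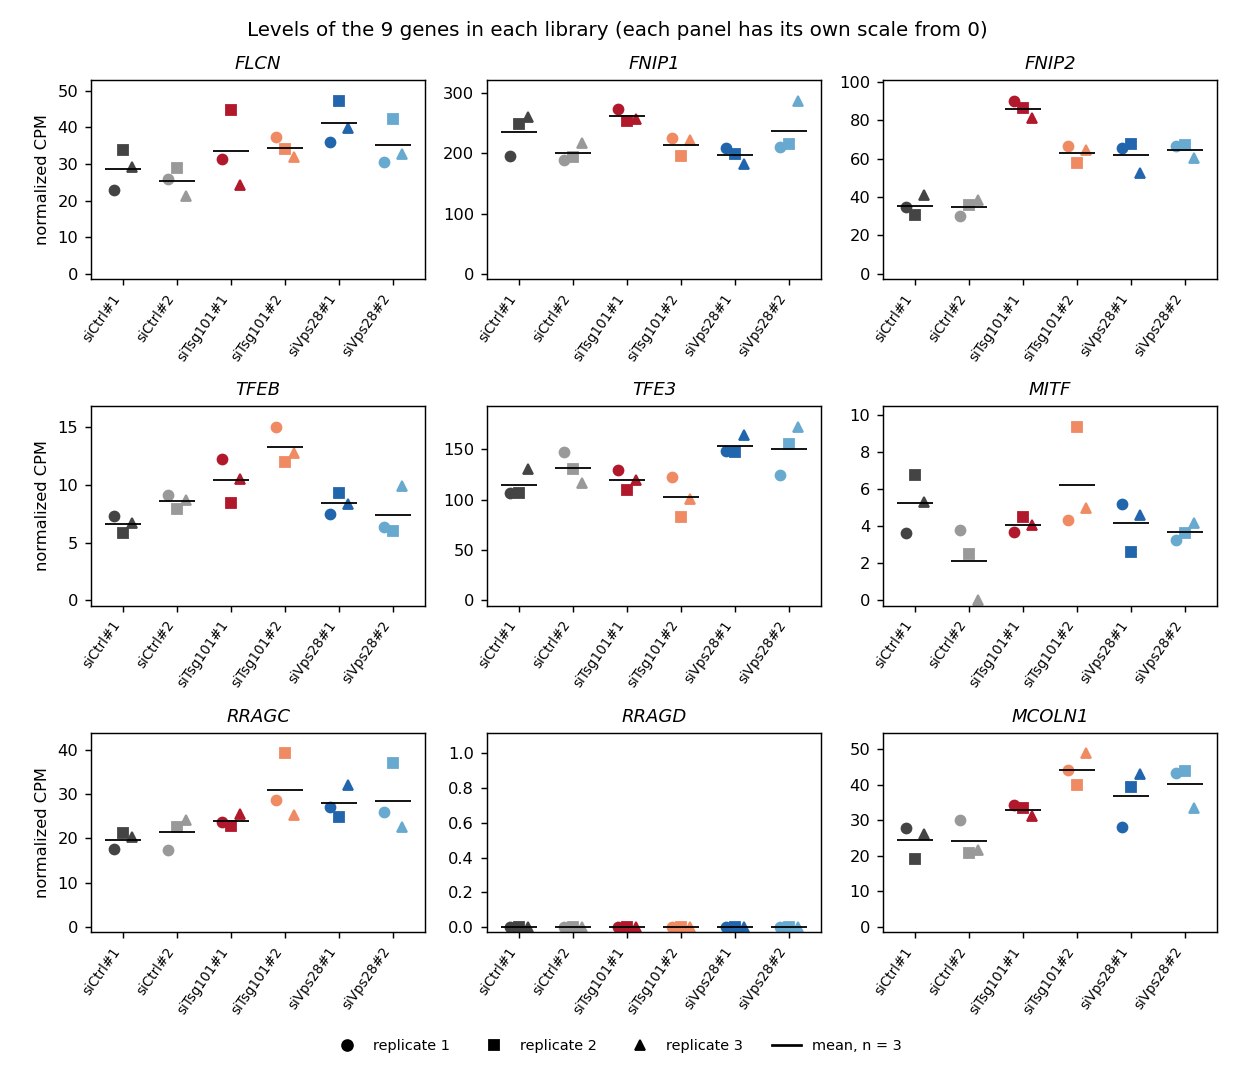
Normalized CPM (vertical axis, from 0, own scale in each panel) of the 9 genes in the 18 libraries, by siRNA group, with symbols for the replicate number and a line at the mean of the 3 libraries. FNIP2 is the gene whose 12 on-target libraries all lie above the 6 nontargeting ones (lowest 52.39 against highest 40.92), and RRAGD is at 0 throughout.

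Promoter sequences are shown for the 4 members whose windows carried CACGTG or a stretch shared between the FNIP paralogs. RefSeq windows of 300 bases around annotated transcript starts (GRCh38.p14) were matched for 8 of the 9 members. The letters CACGTG, which read the same on both strands, were in 7.26% of all 35116 windows, and the longer TCACGTG, which contains it, in 3.71% on either strand. MCOLN1 held CACGTG at 41 and 14 bases before the start. FNIP1 held it at 175 and 94 bases before the start and RRAGC at 112 bases. The windows of TFEB, TFE3, MITF, FLCN and FNIP2 held none, which says only that these letters are not in these windows. The letters TCATGTG, also searched, were in 2.92% of all windows on either strand. Among the members they occurred once, in the second of the 2 FNIP2 windows, which is not printed. FNIP1 and FNIP2 shared a stretch of 14 bases, CTCAGTCATATGAC, on opposite strands, and it was in 3 of the 35116 windows, the third being that of LINC00837. This stretch was looked for after the sequences had been seen. The windows below read 5′ to 3′ on the gene's strand, with CACGTG and the shared stretch in capitals. They lie at chr19:7522374-7522673 (plus strand) for MCOLN1, chr1:38859723-38860022 (minus) for RRAGC, chr5:131796968-131797267 (minus) for FNIP1 and chr4:158768776-158769075 (plus) for FNIP2. A match is a description of the letters and not a binding site shown in these cells.
MCOLN1: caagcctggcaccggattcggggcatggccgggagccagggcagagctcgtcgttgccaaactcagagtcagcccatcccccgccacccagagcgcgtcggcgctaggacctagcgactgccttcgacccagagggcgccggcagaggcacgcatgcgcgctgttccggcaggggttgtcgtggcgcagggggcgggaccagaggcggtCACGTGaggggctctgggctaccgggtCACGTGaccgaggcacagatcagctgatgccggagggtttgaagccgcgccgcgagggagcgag
RRAGC: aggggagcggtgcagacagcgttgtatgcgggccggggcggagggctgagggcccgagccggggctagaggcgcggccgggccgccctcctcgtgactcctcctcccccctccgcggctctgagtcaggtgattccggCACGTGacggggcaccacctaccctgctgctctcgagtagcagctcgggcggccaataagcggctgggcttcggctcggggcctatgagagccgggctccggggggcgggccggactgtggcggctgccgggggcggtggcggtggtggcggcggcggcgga
FNIP1: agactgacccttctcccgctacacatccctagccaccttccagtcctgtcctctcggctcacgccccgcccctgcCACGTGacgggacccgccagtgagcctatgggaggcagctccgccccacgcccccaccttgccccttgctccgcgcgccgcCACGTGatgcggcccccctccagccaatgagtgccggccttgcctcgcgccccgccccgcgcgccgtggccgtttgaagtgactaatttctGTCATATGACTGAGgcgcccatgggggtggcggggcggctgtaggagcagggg
FNIP2: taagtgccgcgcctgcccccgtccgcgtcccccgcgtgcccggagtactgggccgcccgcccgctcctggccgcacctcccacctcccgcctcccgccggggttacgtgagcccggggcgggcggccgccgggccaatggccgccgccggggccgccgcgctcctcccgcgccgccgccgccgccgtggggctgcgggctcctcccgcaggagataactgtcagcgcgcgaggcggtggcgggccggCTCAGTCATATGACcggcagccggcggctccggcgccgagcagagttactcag

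FNIP2 (NM_020840, GRCh37 chromosome 4, 159690178 to 159829202, plus strand) encodes 1 of the 2 folliculin-interacting proteins, and its exons overlap no other annotated gene. Its levels in replicates 1, 2 and 3 were 34.99, 30.77 and 40.92 normalized CPM with siCtrl#1, and 30.22, 36.09 and 38.48 with siCtrl#2. With siTsg101#1 they were 90.22, 86.13 and 80.94, and with siTsg101#2 66.72, 57.84 and 64.57. The siVps28#1 libraries were at 65.55, 67.84 and 52.39, and those of siVps28#2 at 66.65, 67.01 and 60.13. All 12 on-target libraries thus lay above all 6 nontargeting ones, as did 1.96% of the genes tested, and the siTsg101#1 libraries lay above all the others.

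Against siCtrl#1, FNIP2 was up-regulated by 1.26 ± 0.16 with siTsg101#1 (log2 fold change ± SE, n = 3 against 3, edgeR adjusted p = 3.83e-06), the one member called of 8 tested, where 21.8% of all genes were called in either direction and 11.6% higher. With siTsg101#2 it rose by 0.82 ± 0.16 (adjusted p = 0.000655). With siVps28#1 it rose by 0.79 ± 0.16 (adjusted p = 0.00221), again the one member called, where 8.63% of all genes were called in either direction and 4.85% higher. With siVps28#2 it rose by 0.85 ± 0.16 (adjusted p = 0.000607). The share of all genes called higher with all 4 siRNAs was 2.55%. These 4 contrasts share the siCtrl#1 libraries. Against siCtrl#2, which differed from siCtrl#1 by -0.03 for this gene, the on-target siRNAs were higher on average by 0.96 ± 0.13 (edgeR adjusted p = 2.19e-05), where 10.5% of all genes were called.

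Ordered by group mean, FNIP2 was at 85.8 ± 4.65 normalized CPM (SD, n = 3) with siTsg101#1, 64.6 ± 3.87 with siVps28#2, 63.1 ± 4.63 with siTsg101#2, 61.9 ± 8.34 with siVps28#1, 35.6 ± 5.10 with siCtrl#1 and 34.9 ± 4.25 with siCtrl#2. The siVps28#2, siTsg101#2 and siVps28#1 groups lay within their spread of each other, and so did the nontargeting groups. The gap between the siTsg101 siRNAs was 0.44 on the log2 scale (interval 0.13 to 0.76) and did not pass the adjustment (edgeR adjusted p = 0.0781). Averaged over siRNAs, Tsg101 depletion exceeded Vps28 depletion by 0.22 (95% interval -0.01 to 0.44), which did not pass either (edgeR adjusted p = 0.213).

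FNIP1 (NM_133372, GRCh37 chromosome 5, 130977407 to 131132710, minus strand) encodes the other FLCN partner, and 281 of its exon bases overlap a gene on the same strand. Its libraries ran from 183 to 287.5 normalized CPM, and on-target and nontargeting libraries overlapped over most of that range. The group means of the nontargeting siRNAs were 234.8 ± 34.4 (SD, n = 3) for siCtrl#1 and 200.2 ± 15.4 for siCtrl#2. Those of Tsg101 depletion were 261.6 ± 10.8 for the first siRNA and 214.2 ± 16.5 for the other, and those of Vps28 depletion were 196.5 ± 12.7 and 237.5 ± 43.4. The siTsg101#1 libraries all lay above those of siCtrl#2 but not above those of siCtrl#1. The 4 on-target siRNAs differed on average from siCtrl#1 by -0.06 on the log2 scale (95% interval -0.30 to 0.19, edgeR adjusted p = 0.783), and from siCtrl#2 by 0.18, so that its sign depended on the control.

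The paralogs were also set against each other within a library, which removes the library's scaling. There were 0.124 to 0.186 FNIP2 counts per FNIP1 count in the 6 nontargeting libraries and 0.209 to 0.342 in the 12 on-target libraries. The lowest on-target ratio was that of siVps28#2 replicate 3, the library with the highest FNIP1 level, and the other on-target libraries were at 0.286 or more. The ratio compares libraries only, since the amplicons of the 2 genes may be amplified unequally, and it is given as a description with no test.

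**Figure D2:**
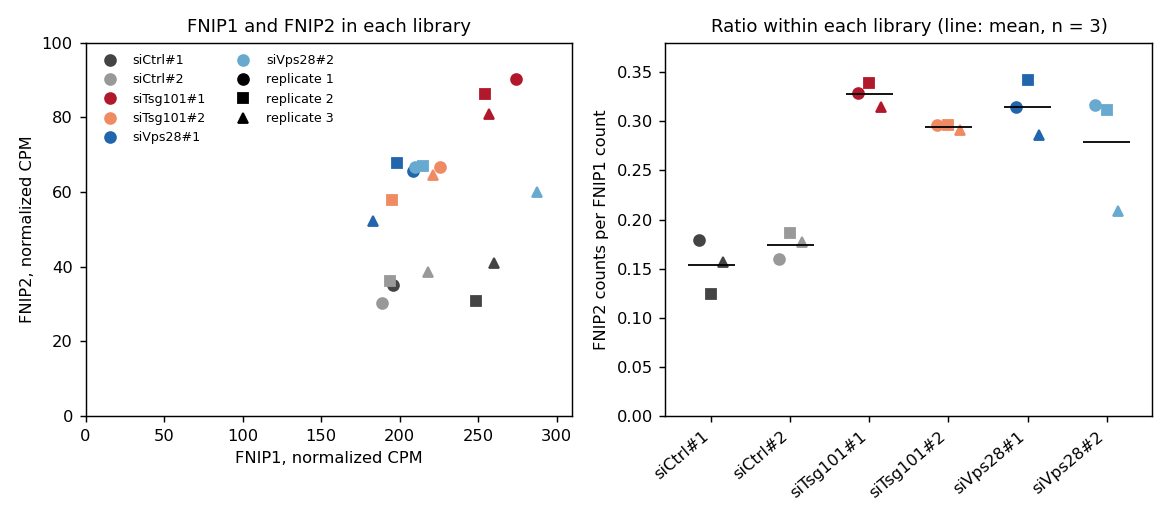
Left, FNIP2 against FNIP1 in normalized CPM, 1 point per library; right, FNIP2 counts per FNIP1 count in each library, with a line at the mean of the 3 libraries of a group. The nontargeting libraries lie at FNIP2 levels of 40.92 or less and ratios of 0.186 or less, below every on-target library.

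FLCN (NM_144997, GRCh37 chromosome 17, 17115526 to 17140502, minus strand) encodes folliculin, which acts as a GTPase-activating protein for RagC and RagD. Its exons overlap another gene on the same strand, and 31.3% of its longest transcript is shared with it, so that part of its reads could belong there. Levels were 22.95, 33.84 and 29.11 normalized CPM with siCtrl#1, and 25.91, 28.92 and 21.36 with siCtrl#2. With siVps28#1, the group with the highest mean, they were 36.09, 47.29 and 39.92, above all 6 nontargeting libraries, as for 5.82% of the genes tested. In the remaining on-target groups they ran from 24.28 to 44.64, which overlapped the nontargeting range. The changes against siCtrl#1 were all above 0, from 0.22 with siTsg101#1 to 0.53 ± 0.21 with siVps28#1, and none was called (edgeR adjusted p = 0.125 for the latter). With siVps28#1 against siCtrl#2 the difference was 0.70 ± 0.21 (edgeR adjusted p = 0.0612, where 4.39% of all genes were called), and it was called with the replicate number as a block (adjusted p = 0.0163).

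TFEB (NM_001167827, GRCh37 chromosome 6, 41651716 to 41703997, minus strand) encodes the factor best known for control of lysosomal genes, and 115 of its exon bases overlap an antisense gene. It was measured with 19 to 97 counts per library. Levels were 7.27, 5.85 and 6.68 normalized CPM with siCtrl#1, and 9.14, 7.91 and 8.66 with siCtrl#2. With siTsg101#1 they were 12.25, 8.40 and 10.47, and with siTsg101#2 14.98, 11.97 and 12.75. The siVps28#1 libraries were at 7.51, 9.32 and 8.31, and those of siVps28#2 at 6.33, 5.96 and 9.91. The siTsg101#2 libraries lay above all nontargeting libraries, as for 11.7% of the genes tested, siTsg101#1 overlapped siCtrl#2, and both siVps28 groups overlapped siCtrl#2.

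Against siCtrl#1, TFEB rose by 0.99 ± 0.23 with siTsg101#2 (edgeR adjusted p = 0.00399), where 4 of the 8 members were called beside 17.0% of all genes in either direction and 10.1% higher. The change with siTsg101#1 was 0.63 ± 0.25 (adjusted p = 0.0632), and it was called with the replicate number as a block (edgeR adjusted p = 0.0482), which made 2 members called with that siRNA. It was also called without siTsg101#1 replicate 2 (0.75, edgeR adjusted p = 0.0467) or siVps28#2 replicate 3 (0.63, adjusted p = 0.0459), in 2 of the 18 fits that left out 1 library, with adjusted p up to 0.176. The changes with siVps28#1 and siVps28#2 were 0.34 (edgeR adjusted p = 0.463) and 0.15 (adjusted p = 0.739). The siCtrl#2 libraries were themselves 0.37 above siCtrl#1 on the log2 scale (edgeR adjusted p = 0.536). Against siCtrl#2 the change with siTsg101#2 was 0.63 (edgeR adjusted p = 0.0596, or 0.0401 with the block, where it was called).

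TFE3 (NM_006521, GRCh37 chromosome X, 48886237 to 48900936, minus strand) encodes the second of the widely expressed factors. Levels were 106.8, 106.8 and 130.1 normalized CPM with siCtrl#1, and 146.8, 130.5 and 116 with siCtrl#2. With siTsg101#1 they were 129, 109.5 and 119.5, and with siTsg101#2 122.8, 82.56 and 101. The siVps28#1 libraries were at 148.4, 147.1 and 164.1, and those of siVps28#2 at 124.2, 155.2 and 171.9. The siVps28#1 libraries were the ones that lay above all 6 nontargeting libraries, again beside 5.82% of the genes tested, and the 3 other on-target groups overlapped them. None of the changes against siCtrl#1 was called, the largest being 0.42 ± 0.16 with siVps28#1 (edgeR adjusted p = 0.119).

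The depletions of Tsg101 and Vps28 were compared directly, with the siRNAs of each target averaged. The control libraries did not enter this difference but shared in the estimate of the spread. None of the 8 members was called, where 6.20% of all genes were, although TFEB and TFE3 passed the adjusted p alone, as 11.8% of all genes did. TFEB was 0.57 ± 0.16 higher with Tsg101 depletion (95% interval 0.23 to 0.91, edgeR adjusted p = 0.0257), a 1.48-fold difference. TFE3 was lower with Tsg101 than with Vps28 depletion, with a log2 difference of -0.46 ± 0.12 (95% interval -0.70 to -0.22, edgeR adjusted p = 0.00993). The difference for TFEB was called, at 0.60 to 0.70, when siTsg101#1 replicate 2, siTsg101#2 replicate 2, siVps28#1 replicate 2 or siVps28#2 replicate 3 was left out. Over all 18 fits that left out 1 library it ran from 0.50 to 0.70, with edgeR adjusted p from 0.00688 to 0.072. For MCOLN1, RRAGC, FNIP1, FLCN and MITF the difference did not pass, and its 95% interval ran from -0.30 to 0.27 for MCOLN1, -0.35 to 0.25 for RRAGC, -0.09 to 0.35 for FNIP1, -0.47 to 0.13 for FLCN and -0.33 to 1.07 for MITF.

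MITF (NM_198159, GRCh37 chromosome 3, 69788607 to 70017487, plus strand) encodes the founding member of the family, known for its role in melanocytes. It had 0 to 60 counts per library, and its levels were 3.64, 6.77 and 5.31 normalized CPM with siCtrl#1, and 3.81, 2.47 and 0 with siCtrl#2. The on-target libraries ran from 2.63 to 9.33, the highest being siTsg101#2 replicate 2, and overlapped those of siCtrl#1. The mean of the 4 siRNAs differed from siCtrl#1 by -0.22 ± 0.37 (95% interval -0.99 to 0.55, edgeR adjusted p = 0.717). Between the nontargeting siRNAs the difference was -1.39 ± 0.54 (edgeR adjusted p = 0.221), so that the contrasts took the opposite sign against siCtrl#2 for siTsg101#1, siVps28#1 and siVps28#2, and siTsg101#2 was called there (1.66 ± 0.52, adjusted p = 0.0295, with 14.4% of all genes called). Of 9 melanocyte markers, TYR, TYRP1, DCT, MLANA, SOX10, OCA2 and SLC45A2 had no read in any library, and all 9 summed to 0 to 1.32 normalized CPM.

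RRAGC (NM_022157, GRCh37 chromosome 1, 39303870 to 39325444, minus strand) encodes RagC, the substrate of folliculin. Another gene on the same strand overlaps it, and 44.2% of its longest transcript is shared with that gene. Levels were 17.49, 21.23 and 20.2 normalized CPM with siCtrl#1, and 17.27, 22.49 and 24.24 with siCtrl#2. With siTsg101#1 they were 23.68, 22.84 and 25.54, and with siTsg101#2 28.73, 39.18 and 25.17. The siVps28#1 libraries were at 27.14, 24.84 and 32.08, and those of siVps28#2 at 25.95, 37.06 and 22.59. All 12 on-target libraries lay above the 3 siCtrl#1 libraries, as for 5.87% of the genes tested. Those of siTsg101#2 and siVps28#1 also lay above siCtrl#2, and the siTsg101#1 and siVps28#2 libraries overlapped it. Of the genes tested, 11.7% with siTsg101#2 and 5.82% with siVps28#1 lay above all 6 nontargeting libraries.

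Against siCtrl#1, RRAGC rose with siTsg101#2 by 0.66 ± 0.21 (edgeR adjusted p = 0.0265), a call that was lost without siCtrl#1 replicate 1 (0.59, adjusted p = 0.101), siCtrl#1 replicate 3 (0.69, adjusted p = 0.06) or siTsg101#2 replicate 2 (0.47, adjusted p = 0.152), the lowest p over the libraries left out being 0.0164. Against siCtrl#2 it was 0.54 (edgeR adjusted p = 0.0771). The changes with the other siRNAs were 0.30, 0.52 and 0.54 for siTsg101#1, siVps28#1 and siVps28#2, with edgeR adjusted p of 0.335, 0.141 and 0.0856. Without siVps28#2 replicate 3 the last of these was called (0.68, edgeR adjusted p = 0.0453, with p up to 0.385 over the libraries left out). The mean over the 4 was 0.50 ± 0.17 with adjusted p = 0.0359 in edgeR, under the 1.5-fold limit.

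RRAGD (NM_021244, GRCh37 chromosome 6, 90074335 to 90121992, minus strand) encodes RagD, the alternative to RagC in the heterodimer. It had 0 of 92502530 reads counted on genes in the 18 libraries together, which allows up to 0.0324 CPM (3 counts), and 0.402 in the deepest and 1.17 in the shallowest single library. This limit covers counting error only. It was 1 of 5385 targets at 0 in every library, and a transcript that the cells lack and a target that the panel fails to amplify cannot be told apart here. No fold change was therefore computed for it.

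MCOLN1 (NM_020533, GRCh37 chromosome 19, 7587510 to 7598895, plus strand) encodes the mucolipin channel, and 175 of its exon bases overlap other genes on the same strand. Levels were 27.94, 19.08 and 26.19 normalized CPM with siCtrl#1, and 30.22, 20.76 and 21.55 with siCtrl#2. With siTsg101#1 they were 34.29, 33.35 and 31.26, and with siTsg101#2 44.17, 39.96 and 48.84. The siVps28#1 libraries were at 28.01, 39.41 and 42.93, and those of siVps28#2 at 43.3, 44.01 and 33.37. All on-target libraries except siVps28#1 replicate 1 lay above all nontargeting ones, where 11.7% of the genes tested did so with siTsg101#1, 11.7% with siTsg101#2 and 7.21% with siVps28#2.

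The changes of MCOLN1 against siCtrl#1 were 0.42 (siTsg101#1, edgeR adjusted p = 0.132), 0.85 (siTsg101#2, adjusted p = 0.00332), 0.59 (siVps28#1, adjusted p = 0.0659) and 0.71 (siVps28#2, adjusted p = 0.0146). With siVps28#2 it was 1 of 2 members called, FNIP2 being the other, where 13.3% of all genes were called and 7.09% higher. That call was lost without siCtrl#1 replicate 2 (0.57, edgeR adjusted p = 0.0851), siVps28#2 replicate 1 (0.65, adjusted p = 0.0542) or siVps28#2 replicate 2 (0.64, adjusted p = 0.0521), with adjusted p from 0.00813 over the libraries left out. Without siVps28#1 replicate 1, the lowest on-target library, the change with siVps28#1 was called (0.74, edgeR adjusted p = 0.0336). Averaged over the 4 siRNAs it was 0.64 ± 0.16 (edgeR adjusted p = 0.00564) against siCtrl#1 and 0.67 (adjusted p = 0.0062) against siCtrl#2. The former fell to 0.50 and was no longer called (edgeR adjusted p = 0.0627, the highest over all alternatives) without siCtrl#1 replicate 2, the lowest MCOLN1 library of all.

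**Figure D3:**
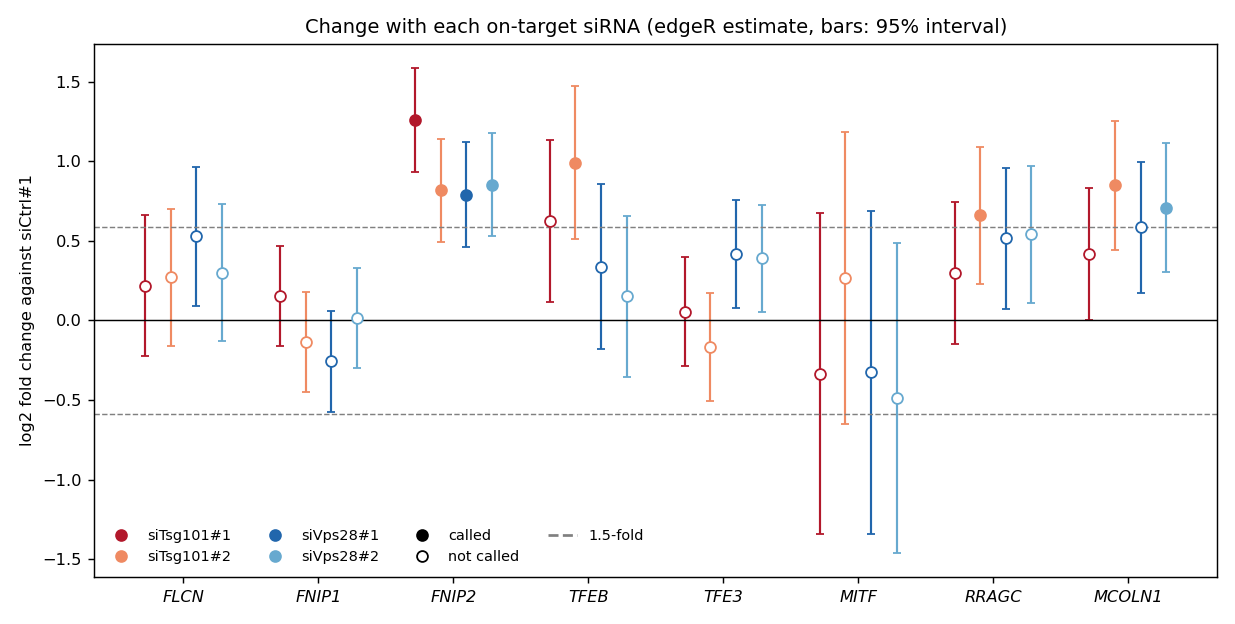
Log2 fold change against siCtrl#1 (vertical axis) of the 8 tested genes with each on-target siRNA, as edgeR estimates with 95% intervals; filled points were called, and dashed lines mark 1.5-fold. FNIP2 has 4 filled points, MCOLN1 2 and TFEB and RRAGC 1 each, and the intervals of MITF are the widest.

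In the mean of the 4 siRNAs against siCtrl#1, FNIP2 and MCOLN1 were the 2 members called, both higher, where 8.40% of all genes were called higher and 15.0% in either direction. The median change of the 8 tested members was 0.42 on the log2 scale, beside -0.01 over all genes tested, and 6 of the 8 were above 0. Between the nontargeting siRNAs no member was called in edgeR, where 2.06% of all genes were, and MITF was the member with an unadjusted p under 0.05. DESeq2 called none either, while without the low-count filter 1 member, MITF, was called lower with siCtrl#2, on 0 to 15 counts per library against 16 to 31. Between siTsg101#1 and siTsg101#2 no member was called in edgeR (6.94% of all genes), and 2 members, FNIP2 and MCOLN1, had an unadjusted p under 0.05. Between siVps28#1 and siVps28#2 none was called in edgeR (0.488% of all genes), and none had an unadjusted p under 0.05. DESeq2 called none in either comparison.

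CD68, a lysosomal membrane glycoprotein used as a macrophage marker, was called higher in the mean of the 4 siRNAs against siCtrl#1 but not against siCtrl#2. The 8 markers of leukocytes, fibroblasts and endothelium summed to 517 to 723 normalized CPM with siCtrl#1, 781 to 1060 with siCtrl#2, 1200 to 1670 with siTsg101#1, 1090 to 1120 with siTsg101#2, 685 to 841 with siVps28#1 and 1210 to 1620 with siVps28#2. Nearly all of it was CD68, since PTPRC, CD3E, COL1A2 and DCN had no read and COL1A1, PECAM1 and VWF had 50 reads or fewer in all. The 8 epithelial markers summed to 127 to 167 in the nontargeting libraries and 93.8 to 145 in the on-target ones. Of the 4 tested, EPCAM was called higher (0.65, edgeR adjusted p = 0.0393) and KRT8 lower (-0.69, adjusted p = 0.0129) against siCtrl#1, and against siCtrl#2 they were at -0.37 and -0.38, neither called. Their part in the changes above was not tested, and in bulk RNA fewer cells of a type and less RNA per cell cannot be told apart.

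Genes around the members were taken from 4 lists written from general knowledge, with earlier results of these data known and the members left out. The paper had already reported established MiT-TFE targets among the autophagy genes raised in these libraries. The counts for that list are therefore a description and no independent test. Of 65 tested genes known as MiT-TFE targets, which encode lysosomal hydrolases, membrane proteins, proton pump subunits and autophagy proteins, 16 were called higher and none lower in the mean of the 4 siRNAs against siCtrl#1, where 8.40% of all genes were called higher. Their median change was 0.33, 57 were above 0, and 10 were called higher with all 4 siRNAs, beside 2.55% of all genes. With siTsg101#1, 17 were called higher and 2 lower, and with siTsg101#2, 22 higher and 1 lower. Of all genes, 21.8% and 17.0% were called there in either direction. With siVps28#1 and siVps28#2, 16 and 18 were called higher and none lower, where 8.63% and 13.3% of all genes were called. HEXA was called lower with siTsg101#1 (-1.28, edgeR adjusted p = 0.000515) and siTsg101#2 (-0.82, adjusted p = 0.0139), and not with siVps28#1 or siVps28#2. SLC36A1, a lysosomal amino acid transporter, rose by 2.36 ± 0.21 against siCtrl#1 (edgeR adjusted p = 4.53e-08), but siCtrl#2 was itself 1.18 above siCtrl#1 for this gene (adjusted p = 0.0124, called), and against siCtrl#2 the rise was 1.19 ± 0.18 (adjusted p = 6.47e-05). NPC1, which exports cholesterol from lysosomes, rose by 1.41 ± 0.14 (edgeR adjusted p = 2.07e-07) and GLA, alpha-galactosidase A, by 1.40 ± 0.18 (adjusted p = 6.4e-06), and against siCtrl#2 they rose by 1.44 and 1.62. Against siCtrl#2, 13 of the list were called higher and 1 lower, with a median of 0.28, where 6.09% of all genes were called higher. Between the nontargeting siRNAs 3 of the 65, ATP6V0A1, NRBF2 and SLC36A1, were called higher with siCtrl#2, with a median of 0.11, where 1.40% of all genes were. HEXA, ATP6V0A1 and NRBF2 fall outside the rule for named genes and were named after their values were seen.

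Among 34 tested genes of Rag partners and nutrient sensing, 5 were called higher and none lower against siCtrl#1, where 8.40% of all genes were called higher, with a median change of 0.11. Against siCtrl#2 4 were called higher, where 6.09% of all genes were, with a median of 0.14. C9orf72, which forms a complex with SMCR8 at lysosomes, rose by 1.09 ± 0.18 (edgeR adjusted p = 0.000123), and was the one called with all 4 siRNAs, and by 1.27 against siCtrl#2. CASTOR1, a cytosolic arginine sensor, rose by 1.07 ± 0.25 (adjusted p = 0.00308 in edgeR) and SESN2, a leucine sensor, by 0.91 ± 0.24 (adjusted p = 0.00819). Against siCtrl#2 they were at 0.64 (edgeR adjusted p = 0.0702, not called) and 0.83 (adjusted p = 0.0199). RRAGA and RRAGB, the other subunits of the Rag heterodimer, were at 0.12 (edgeR adjusted p = 0.494) and 0.08 (adjusted p = 0.813).

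Of 24 tested kinases, phosphatases, 14-3-3 genes and other regulators of the factors, 6 were called higher and none lower against siCtrl#1, where 8.40% of all genes were called higher, with a median of 0.16. The control libraries differed by as much, since siCtrl#2 against siCtrl#1 gave a median of 0.17 over the same genes, and against siCtrl#2 the median was 0.04 and 2 were called higher, where 6.09% of all genes were. YWHAZ, a 14-3-3 gene, rose by 1.09 ± 0.23 against siCtrl#1 (edgeR adjusted p = 0.00115) and was at 0.57 against siCtrl#2 (adjusted p = 0.0705). PRKCD, protein kinase C delta, rose by 0.98 ± 0.16 (edgeR adjusted p = 0.000105) and, against siCtrl#2, by 0.76 (adjusted p = 0.00146). PPP3CB, a catalytic subunit of calcineurin, rose by 0.93 ± 0.20 against siCtrl#1 (edgeR adjusted p = 0.00167) and was at 0.05 against siCtrl#2 (adjusted p = 0.887).

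Of 12 genes of lysosomal channels and their partners, 2 were called higher and none lower against siCtrl#1, where 8.40% of all genes were called higher, with a median of 0.34. Between the nontargeting siRNAs the median was 0.28, and against siCtrl#2 it was 0.26, with none of the 12 called by edgeR. PDCD6, a calcium-binding protein, rose by 1.04 ± 0.16 against siCtrl#1 (edgeR adjusted p = 3.87e-05), but siCtrl#2 lay 1.38 above siCtrl#1 (adjusted p = 0.000136, called), and against siCtrl#2 its sign turned, to -0.34 (adjusted p = 0.0959). ATG16L1, an autophagy protein, rose by 0.82 ± 0.23 against siCtrl#1 (edgeR adjusted p = 0.0115) and was at 0.43 against siCtrl#2 (adjusted p = 0.191).

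**Figure D4:**
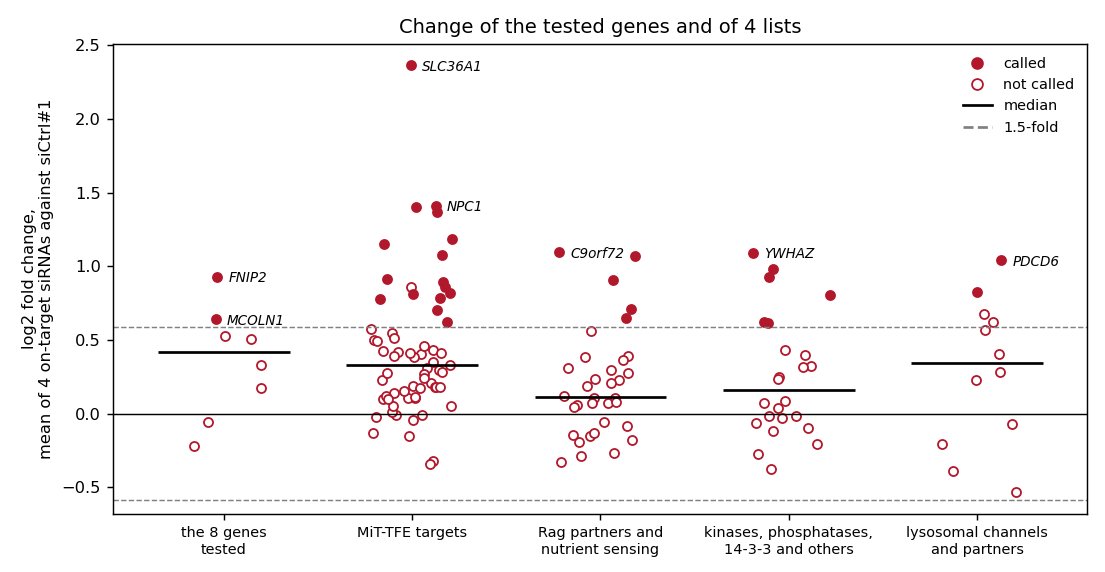
Log2 fold change averaged over the 4 on-target siRNAs, against siCtrl#1 (vertical axis), for the 8 tested genes and 4 lists, 1 point per gene; filled points were called, and black lines are medians. The medians are 0.42 for the 8 genes, 0.33 for the MiT-TFE targets, 0.11 for the Rag partners, 0.16 for the regulators and 0.34 for the channels, and SLC36A1 is the highest point.

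The genes whose normalized log2 CPM followed each member most closely over the 18 libraries were named as a description, with no test. The libraries share 6 group means and 3 batches, so the correlation of deviations from group means is given beside each. FNIP2 went with the chemokine genes CXCL8 (r = 0.954, and 0.401 within groups) and CCL20 (0.951, and -0.00285 within groups). Within groups, part of the likeness remained for CXCL8 and almost none for CCL20. MCOLN1 went with PLTP, a phospholipid transfer protein (0.861, and 0.807 within groups), and MICA, a stress-induced surface ligand (0.848, and 0.111). RRAGC went with ATP6V1A, a subunit of the lysosomal proton pump (0.836, and 0.759), and RIPK2 (0.804, and 0.657). TFEB went with TRMO (0.866, and 0.648) and HECTD2 (0.836, and 0.515). TFE3 went with WWC2 (0.819, and 0.748) and the autophagy receptor gene NBR1 (0.795, and 0.696). FLCN went with ANKRD9 (0.848, and 0.809) and GTPBP2 (0.789, and 0.84), FNIP1 with ZBTB1 (0.816, and 0.815) and MAP7 (0.804, and 0.672). MITF, the member with the fewest counts of those tested, went with AP1M1 (0.891, and 0.87) and CCDC32 (0.883, and 0.872).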

How the data were processed

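Libraries of RKO cells from 6 siRNA groups, 3 replicates each, were prepared by the authors with the Ion AmpliSeq Transcriptome panel and read on an Ion Proton. Their alignment used the Torrent mapper and the hg19 version of the panel's transcripts, and HTSeq 0.6.0 (version from the submitters' processing notes) did the counting. The deposited values are raw counts per target, not normalized or filtered, and the strand setting of the counting is not given in the sources used here. Reads on no feature (48.2% to 49.1% per library) and spike-ins were left out.

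Targets with more than 100 counts summed over libraries (10632) were kept and 386 of a noncoding type were removed, leaving 10246. Counts were TMM-normalized and fitted with edgeR 4.0.16 (R 4.3.3), 6 groups in 1 model, with glmQLFit and glmQLFTest. Contrasts were each on-target siRNA, their mean and siCtrl#2 against siCtrl#1, the mean of siTsg101 against that of siVps28, and the siRNAs of 1 target against each other. The amplified reads carry no molecular identifiers. Alternatives were DESeq2 1.42.0, RLE size factors, other filters on low counts, noncoding types kept, siCtrl#2 or the mean of both controls as the reference, the replicate block, the adjusted p alone, a fit of the compared groups only, and each library left out. Overlaps were measured in the GRCh37 annotation and promoters read from RefSeq (GRCh38.p14).

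The replicate number is the batch in the labels, and pairs the libraries, from experiments the study calls independent (mean correlation of deviations from group means 0.145 over 45 same-numbered pairs, range -0.147 to 0.389). No libraries were duplicates. Scripts were tested on simulated data. The members and lists were chosen with earlier results of these data known. Named genes are the members, TSG101 and VPS28, up to 3 called genes of each list and direction with the largest mean change, and the 2 genes most correlated with each member; RRAGA and RRAGB and the markers were named beside them.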

Additional observations from a re-analysis of the deposited data

Results flagged for a closer look

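TFEB and TFE3 were the members for which the effect of Tsg101 depletion and that of Vps28 depletion differed in the direct test (edgeR quasi-likelihood, Benjamini-Hochberg adjustment), and they differed in opposite directions. The siTsg101 mean minus the siVps28 mean was 0.565 on the log2 scale for TFEB (adjusted p = 0.0257) and -0.461 for TFE3 (adjusted p = 0.00993), both under 1.5-fold, where 11.8% of all genes passed the adjusted p alone. TFEB was higher in all 3 siTsg101#2 libraries than in any siVps28 library, while the siTsg101#1 libraries overlapped them. TFE3 was lower in the siTsg101 libraries than in the siVps28 libraries except for siTsg101#1 replicate 1 (129) against siVps28#2 replicate 1 (124.2 normalized CPM). With 1 library left out, the edgeR adjusted p for TFEB ran up to 0.072. The cause of either difference was not tested.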

How the results depend on the processing

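FNIP2 was called with each on-target siRNA and in their mean under all 27 alternatives (mean change 0.84 to 1.05). Counts of members called moved by more than 1.5 times as follows: to 2 with siTsg101#1 with the replicate number as a block, to 3 with siVps28#1 against the mean of both nontargeting siRNAs (FLCN at 0.62 and MCOLN1 at 0.60 were added, with edgeR adjusted p of 0.0341 and 0.0277), to 2 for Tsg101 against Vps28 depletion with the adjusted p alone, and to 1 between the nontargeting siRNAs without the low-count filter. The MiT-TFE targets called rose to 25 with the adjusted p alone, and the Rag partners fell to 3 against the mean of both nontargeting siRNAs. For Tsg101 against Vps28 depletion, 11.8% of all genes passed the adjusted p alone. For the other changed settings here the share of all genes called is not given. Whether those shifts are particular to the members or lists therefore cannot be told. With 1 library left out, members called ran from 1 to 2 with siTsg101#1, 1 to 2 with siVps28#1, 1 to 3 with siVps28#2, 1 to 2 in the mean of 4 and 0 to 1 for Tsg101 against Vps28. The block changed no other call of a member against siCtrl#1. Among its effects elsewhere, it raised the members called with siVps28#1 against siCtrl#2 from 1 to 2 and the channels called with siVps28#2 from 2 to 4. The regulators called between the nontargeting siRNAs rose from 1 to 2. Smaller shifts included the members called with siTsg101#2 against siCtrl#2, from 3 to 4, and the Rag partners called with siTsg101#1, from 5 to 7. The libraries that decided a call are named with the results.

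Values of the members that changed sign were not called under either setting. Against siCtrl#2 they were TFE3 at -0.14 (siTsg101#1) and -0.018 (mean), TFEB at -0.029 (siVps28#1) and -0.22 (siVps28#2), FNIP1 at 0.10 (siTsg101#2) and 0.18 (mean), and MITF at 1.06 (siTsg101#1), 1.06 (siVps28#1), 0.90 (siVps28#2) and 1.17 (mean). Against the mean of both nontargeting siRNAs they were TFE3 at -0.041 and MITF at 0.36 (siTsg101#1), MITF at 0.37 (siVps28#1), TFEB at -0.032 and MITF at 0.21 (siVps28#2), and MITF at 0.47 and FNIP1 at 0.06 (mean). With 1 library left out, changes against siCtrl#1 ran from -0.002 to 0.159 for TFE3 and -0.054 to 0.431 for FLCN (siTsg101#1), -0.14 to 0.47 for MITF (siTsg101#2), -0.11 to 0.29 for TFEB and -0.14 to 0.10 for FNIP1 (siVps28#2), and -0.171 to 0.026 for FNIP1 (mean). For Tsg101 against Vps28 depletion they ran from -0.145 to 0.071 for RRAGC and -0.088 to 0.048 for MCOLN1. MITF could not be tested with at least 10 counts required in every library. RRAGD, with 0 reads, could not be tested, and among the tested members depth limits MITF and TFEB most, with 382 and 824 reads over all libraries.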
